A study of Mus musculus with 12 samples.

Results

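The genes described here encode chaperones, folding enzymes, stress sensors, degradation factors and translocation factors of the endoplasmic reticulum (ER). They are 32 of the 55349 genes shared by the tables of untreated and stimulated cells. They were chosen by gene symbol with no cut on their values, though earlier results of these data were known. All 32 symbols were found. Poly(A) RNA was sequenced from mouse splenic B cells that remained after CD43 beads had removed cells bearing that surface protein. Wild-type (WT) cells were compared with double knockout (DKO) cells, in which Cre-loxP recombination targeted the RNA-binding proteins hnRNP A1 and hnRNP A2B1. Neither the Cre driver nor the age or number of the mice is stated in the labels. Untreated cells gave 3 WT and 3 DKO libraries. Stimulated cells gave 2 WT and 2 DKO libraries, made after 48 h of culture with antibodies to CD40 (1 µg/mL) and IgM (10 µg/mL). Another 2 libraries of untreated WT cells, here the additional WT libraries, came in a table of their own. The study's question is what both proteins do in germinal centre responses of B cells.

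Secreted and membrane proteins enter the ER through the Sec61 channel, lose their signal peptide and fold with the help of BiP (Hspa5), GRP94 (Hsp90b1), the lectin chaperones and the protein disulfide isomerases. Proteins that fail to fold are drawn back to the cytosol and degraded. When unfolded protein builds up, the sensors ATF6, IRE1 (Ern1) and PERK (Eif2ak3) start the unfolded protein response, which raises many of these genes. B cells enlarge this machinery as they become antibody-secreting plasma cells, a step in which the transcription factor XBP1 takes part.

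The ER stress response element, through which ATF6 and XBP1 act on chaperone genes, is shown because many chaperone genes hold it. Promoter windows of 250 bases before to 50 bases after the start came from RefSeq (GRCm38.p6) and were found for 26 of the 32 genes. The element was searched on both strands as CCAAT and CCACG with 9 bases between them. The windows of 9 of the 26 genes held it, namely Hspa5, Hsp90b1, Calr, Canx, Creld2, Dnajc3, Pdia6, Derl3 and Syvn1, against 0.137% of 27025 genes with a window. By role these are 6 chaperones, 1 isomerase and 2 degradation genes, and no sensor or translocation gene with a window held it. A second form, ATTGG and CCACG with 1 base between them, was in the windows of Herpud1 and Dnajb11 and in 0.0444% of all genes. Capitals mark the letters that the pattern fixes, and where these read CGTGG and then ATTGG the element lies on the other strand.
Hspa5, chr2:34772010-34772058, plus strand: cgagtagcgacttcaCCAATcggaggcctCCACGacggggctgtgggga
Calr, chr8:84847060-84847108, minus strand: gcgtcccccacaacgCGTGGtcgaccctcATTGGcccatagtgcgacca
Hsp90b1, nearer site, chr10:86705518-86705566, minus strand: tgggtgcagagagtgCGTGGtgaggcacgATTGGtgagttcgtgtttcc
Hsp90b1, farther site, chr10:86705623-86705671, minus strand: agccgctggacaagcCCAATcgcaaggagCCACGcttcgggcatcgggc
Pdia6, chr12:17266476-17266524, plus strand: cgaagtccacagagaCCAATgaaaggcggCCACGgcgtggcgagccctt
Creld2, chr15:88819505-88819553, plus strand: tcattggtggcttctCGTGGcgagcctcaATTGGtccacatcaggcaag
Herpud1, second form, chr8:94386362-94386402, plus strand: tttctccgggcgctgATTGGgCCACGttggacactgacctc
In Hspa5 the element began 65 bases before the start site and in Herpud1 52 bases before it. The bare core TGACGTG, searched on both strands as the unfolded protein response element, was in the windows of Hspa5 and Txndc5 and in 2.22% of all genes. TGATGNAAT, letters of the C/EBP-ATF element, was in 0 of the 26 windows and in 1.08% of all genes. A match is a run of letters and does not show binding.

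Each library held between 15090953 and 21731893 gene counts. Whether all replicates are from different mice is not stated, so the p-values reflect the spread among these libraries only, which may be technical in part. The log2 changes of the targeted genes Hnrnpa1 and Hnrnpa2b1 in DKO were -2.46 and -2.03 in untreated cells, and -2.72 and -2.19 in stimulated cells (edgeR, adjusted p from 0.000321 to 0.00217). Untreated DKO library 2 kept the most, with 3215 Hnrnpa1 counts against 1214 and 1524 in DKO libraries 1 and 3. Its Hnrnpa2b1 counts were 9999 against 5296 and 5950. Whether this bears on its ER genes was not tested. Of the B cell markers, Cd79a had 566 to 1085 CPM (counts scaled to the library total), Cd79b 226 to 471, Ms4a1 555 to 1739 and Pax5 575 to 1324 over the 12 libraries. Summed markers of other cells reached at most 1015 CPM for plasma cells, 242 for monocytes or macrophages and 179 for T cells. Single genes made up much of these sums. Irf4, with 385 to 688 CPM, was the largest part for plasma cells, where Sdc1 reached at most 11.3 and Prdm1 19.4. Lck, with 44.3 to 175 CPM, made up nearly all of the T cell sum, in which Trac came next with at most 1.97. Of the plasma cell markers, Tnfrsf17 was at most 0.2 CPM in every library. Among the untreated numbered libraries, WT number 2 and DKO number 1 had the RNA pattern of females (Xist present, Y-linked genes at or near 0) and the other 4 that of males. The numbered untreated WT and DKO groups thus each held libraries of at least 2 mice. In bulk RNA, fewer cells of a type and less RNA per cell cannot be told apart.

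The ER genes held less than 1% of all counts in every library. In untreated WT cells their share was 0.885%, 0.824% and 0.867% (0.859% ± 0.0314, SD, n = 3), and in untreated DKO cells 0.682%, 0.737% and 0.706% (0.708% ± 0.0274, n = 3). The stimulated WT libraries had 0.734% and 0.713%, and the stimulated DKO libraries 0.575% and 0.605%. The share was thus lower in every untreated DKO library than in any numbered untreated WT library, and in every stimulated DKO library than in either stimulated WT library. After scaling by the TMM factors the group means were 0.827% and 0.724% untreated and 0.711% and 0.627% stimulated, in the same order. The additional WT libraries, untreated like the first group, had 0.684% and 0.632%, below every numbered untreated WT library. The untreated DKO libraries were not below these: one of the additional libraries lay within the DKO range and the other under it. From here on WT in untreated cells means the numbered libraries unless the additional ones are named.

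**Figure D1:**
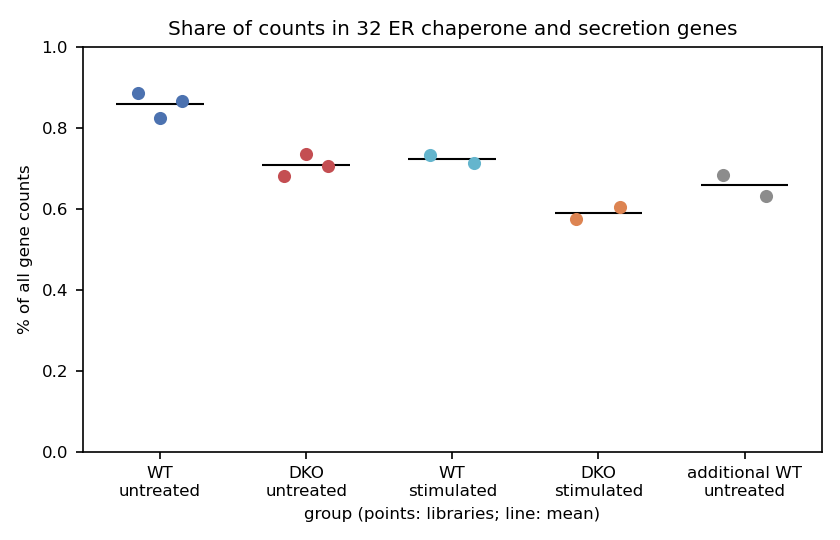
Share of all gene counts held by the 32 ER genes (vertical axis, %), for each library (points) and as the group mean (line) in the 5 groups. DKO points lie below the numbered WT points (untreated) and the WT points (stimulated), and the additional untreated WT points (0.684% and 0.632%) lie below the numbered untreated WT points.

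Per kilobase of exonic length, the lectin chaperone calreticulin (Calr) led in numbered untreated WT cells, with a mean of 370 CPM per kilobase. Hspa5 followed with 276, Hsp90b1 with 243, the disulfide isomerase Pdia3 with 176 and calnexin (Canx) with 145. The sensors were far lower, with 16.2 for Atf6, 6.26 for Eif2ak3 and 1.95 for Ern1. Lowest was Pdia5, with 0.0485, and its 0 to 8 counts per library kept it out of every test. This left 31 tested genes. Hspa5 was second in this order in numbered untreated WT cells, but in the additional WT cells Hsp90b1 led with 310 and Hspa5 had 103. Hspa5 alone took 13.6% to 14.7% of the ER gene counts in the numbered untreated libraries, 10.1% to 10.96% in the stimulated libraries and 6.58% to 6.86% in the additional WT libraries. The median of the ER genes per kilobase averaged 35.4 in untreated WT and 31.6 in untreated DKO libraries. In stimulated cells it was 26.4 and 26.5 in WT and 30.5 and 24.4 in DKO libraries. These DKO values, unlike the share, lay on both sides of WT.

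In untreated cells 7 of the 31 tested genes fell in DKO and 0 rose (quasi-likelihood test of edgeR, adjusted by Benjamini-Hochberg over all genes, threshold 0.05). Of all genes tested in that comparison 10.6% were called lower and 8.81% higher. The 7 were the lectin chaperone Calr, the chaperone Hsp90b1, the disulfide isomerases Pdia4 and Pdia6, and the degradation factors Edem1, Os9 and Herpud1. The falls were modest, from 0.24 to 0.44 on the log2 scale. The median log2 fold change over the 31 genes was -0.15, against -0.01 over all genes, and 27 of the 31 values were negative. With no adjustment, 12 genes had p under 0.05 downward and 1 upward, where 34.7% of all genes had such a p in either direction. The count depended on single libraries: 2 genes were called lower without WT library 3 or without DKO library 3, and 3 without WT library 1, where 4.04%, 4.57% and 7.06% of all genes were called lower. Calr and Edem1 were the only ones called in all 6 fits that left out 1 library. When the additional WT libraries were counted as WT as well, 0 were called lower, against 1.64% of all genes, and Hspa5 changed sign (0.21 on the log2 scale).

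**Figure D2:**
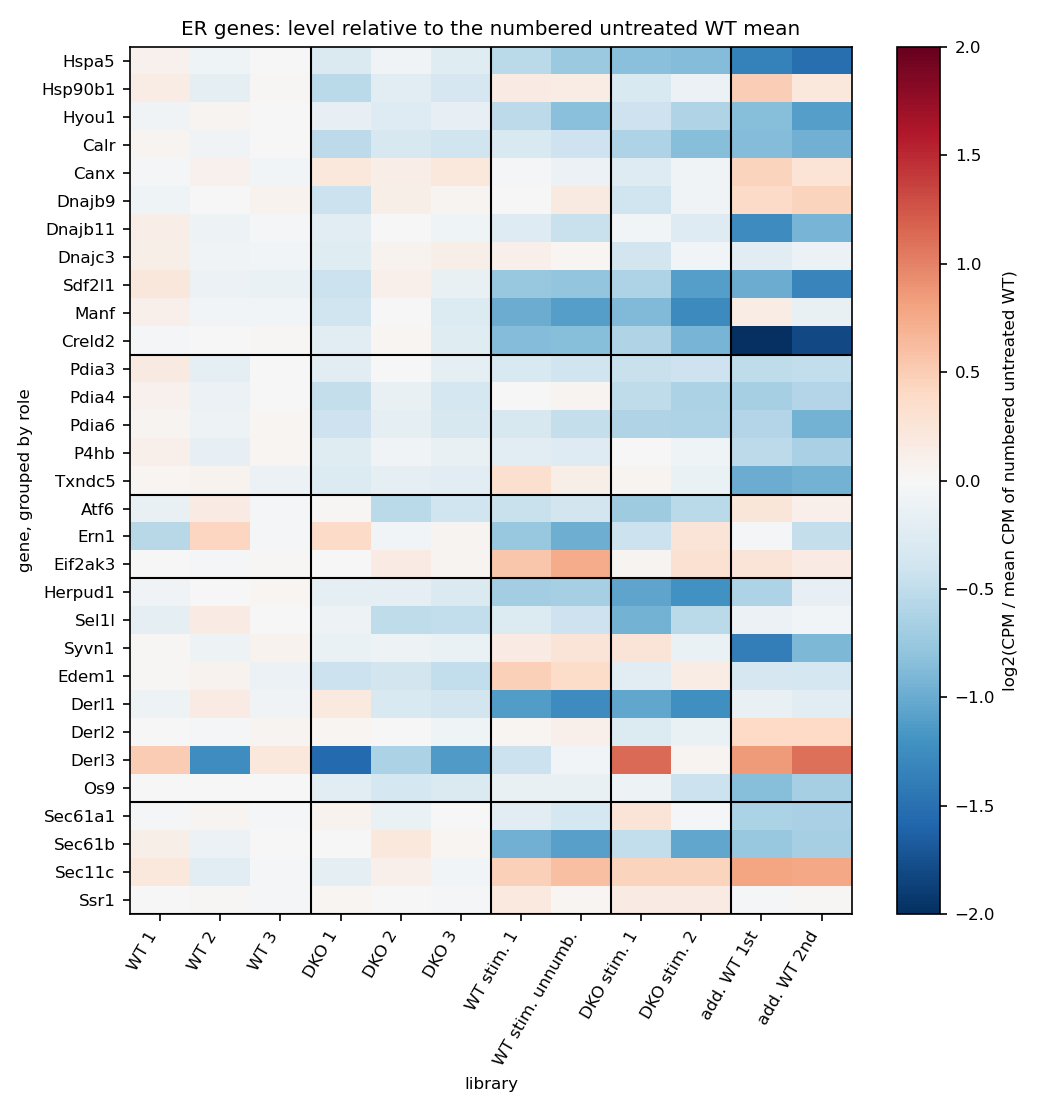
Level of each tested ER gene (rows, grouped by role) in each of the 12 libraries (columns), as log2 of its CPM over its mean CPM in the numbered untreated WT libraries. Blue, lower values fill most of the DKO columns among the chaperones and isomerases, and among the strongest colours are those of Creld2 and Hspa5 in the 2 additional WT columns.

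Among the lumenal chaperones 2 of 11 fell. Calr (ENSMUSG00000003814; GRCm39 chromosome 8, 85568479 to 85573563, minus strand), which binds newly made glycoproteins, had 1110, 1013 and 1077 CPM in WT and 745, 857 and 807 in DKO cells. All DKO libraries lay below all WT libraries, a change of -0.42 ± 0.08 (log2, ± SE; edgeR adjusted p = 0.00828). Hsp90b1 (ENSMUSG00000020048; chromosome 10, 86526073 to 86541373, minus strand), the ER member of the HSP90 family, had 1083, 860 and 992 CPM in WT and 672, 837 and 777 in DKO cells. The groups did not overlap, but the lowest WT and the highest DKO library were close, and the change was -0.37 ± 0.11 (edgeR adjusted p = 0.042). Hspa5 (ENSMUSG00000026864; chromosome 2, 34661982 to 34667559, plus strand), the HSP70 of the ER, had 1237, 1101 and 1165 CPM in WT and 952, 1113 and 986 in DKO cells. DKO library 2 reached into the WT range on this scale of all 12 libraries, though not when the 6 untreated libraries were scaled alone, and the change of -0.21 ± 0.08 did not pass (edgeR adjusted p = 0.105). The other 8 chaperones had log2 changes between -0.22 (Manf) and 0.17 (Canx), none past the threshold.

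Of the 5 disulfide isomerases that could be tested 2 fell, and all 5 had negative changes. Pdia4 (ENSMUSG00000025823; chromosome 6, 47773075 to 47790364, minus strand) measured 285, 248 and 270 CPM in WT and 192, 240 and 209 in DKO cells (-0.34 ± 0.10, edgeR adjusted p = 0.0393). Pdia6 (ENSMUSG00000020571; chromosome 12, 17316546 to 17334771, plus strand) had 316, 283 and 310 in WT and 227, 268 and 242 in DKO cells (-0.31 ± 0.08, edgeR adjusted p = 0.0303). In both genes every DKO library was below every WT library, with DKO number 2 closest to WT. Pdia3, P4hb and Txndc5 had changes of -0.14, -0.16 and -0.24, and Txndc5 was just outside the threshold (edgeR adjusted p = 0.0539).

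Of the 8 genes of ER-associated degradation 3 fell. Edem1 (ENSMUSG00000030104; chromosome 6, 108805602 to 108836317, plus strand), a lectin that marks misfolded glycoproteins for removal, had 239, 247 and 216 CPM in WT and 173, 182 and 166 in DKO cells (-0.44 ± 0.07, edgeR adjusted p = 0.00628). Os9 (ENSMUSG00000040462; chromosome 10, 126931519 to 126957000, minus strand), a lectin that brings such proteins to the membrane ligase, had 114, 115 and 115 in WT and 99.3, 89.8 and 93.9 in DKO cells (-0.29 ± 0.07, edgeR adjusted p = 0.0199). Both genes separated the genotypes without overlap. Herpud1 (ENSMUSG00000031770; chromosome 8, 95113066 to 95122005, plus strand), a membrane protein of the ligase complex, had 230, 243 and 248 in WT and 209, 212 and 196 in DKO cells (-0.24 ± 0.07, edgeR adjusted p = 0.0382). Its DKO libraries were below all WT libraries by a small margin. The scarce Derl3, whose counts were 42 to 165 (WT) and 31 to 60 (DKO), had the farthest change, -1.07 ± 0.42, which did not pass (edgeR adjusted p = 0.107).

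None of the 3 sensors and none of the 4 translocation genes passed. Atf6 had 135, 167 and 146 CPM in WT and 152, 103 and 114 in DKO cells, with overlapping groups (-0.29 ± 0.14, edgeR adjusted p = 0.174). Ern1 had 10.8, 21.4 and 15.5 in WT and 20.7, 15.3 and 16.6 in DKO cells (0.13 ± 0.23, edgeR adjusted p = 0.731), and its highest and lowest libraries were both WT. Eif2ak3 had 37.7, 37.1 and 38.3 in WT and 37.5, 42.4 and 39.1 in DKO cells, nearly level (0.06 ± 0.08, edgeR adjusted p = 0.641). Sec61a1, Sec61b, Sec11c and Ssr1, which form or serve the channel, had log2 changes between -0.05 and 0.08.

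On the scale of the 6 untreated libraries, every DKO library was below every WT library in 11 genes, against 20.0% of all genes tested, and above in Canx alone, against 19.1%. The 11 were the 7 called genes with Hspa5, Hyou1, Syvn1 and Txndc5. With a term for sex in the fit, 13 genes were lower and Canx was higher, where 17.7% and 14.7% of all genes were called. The 6 added were Hspa5, Hyou1, Atf6, Sel1l, Derl3 and Txndc5. Other cell markers differed in part between the genotypes, with CPM scaled here to plain library totals and not by TMM. The B cell marker Ms4a1 had 737 to 780 CPM in WT and 555 to 651 in DKO cells. On this scale the ranges of Cd79b, 287 to 345 and 226 to 286, nearly met. Those of Cd79a (612 to 804 and 566 to 676) and Pax5 (575 to 650 and 617 to 825) overlapped. Monocyte or macrophage markers summed to 65.7 to 71.8 and 37.1 to 64.7, a difference that lay in Adgre1 (31.1 to 48.1 and 15.4 to 20.7, -1.12 ± 0.17, edgeR adjusted p = 0.00469). Of the other genes of that list, Lyz2 (6.99 to 25.4 and 12.4 to 29.4) and Cd14 had positive changes of 0.54 and 1.12 that did not pass. The summed plasma cell markers overlapped (729 to 883 and 798 to 870), with Irf4 as the largest part (478 to 634 and 550 to 644). Within that list Prdm1 fell (-1.20 ± 0.27, edgeR adjusted p = 0.0174) and Igha rose (0.68 ± 0.19, edgeR adjusted p = 0.0371). Their part in the result was not tested.

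**Figure D3:**
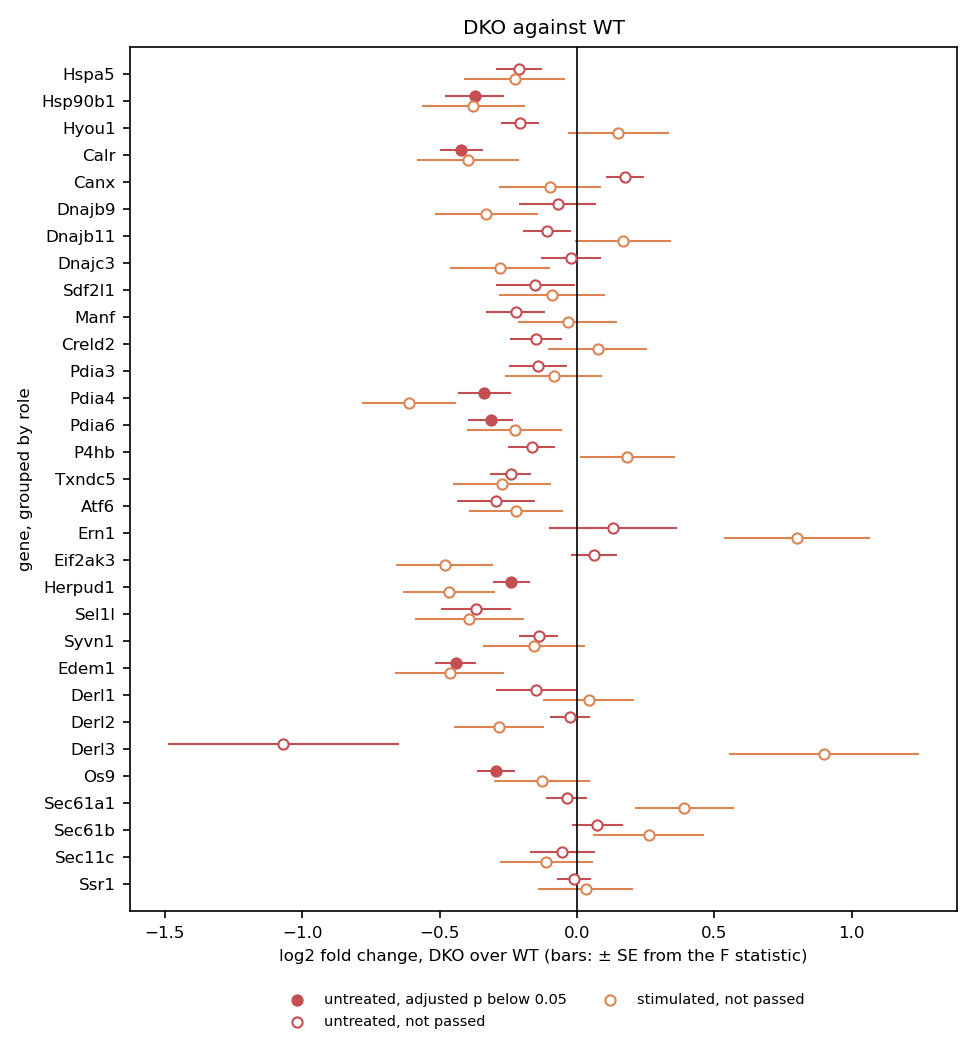
Log2 fold change of DKO over WT for each tested ER gene (rows, grouped by role) in untreated and stimulated cells. Bars are ± SE and filled points passed an adjusted p of 0.05: the 7 filled points are all untreated and negative, and no stimulated point is filled.

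In stimulated cells 0 of the 31 genes passed in edgeR, where 6.17% of all genes were called lower and 5.09% higher. With no adjustment 4 had p under 0.05 downward and 2 upward, where 30.1% of all genes had such a p, and DESeq2 called 1, Pdia4. That gene came nearest in edgeR, with 268 and 278 CPM in WT and 188 and 173 in DKO cells (-0.61 ± 0.17, edgeR adjusted p = 0.0506). Its DKO libraries were far below the WT libraries, and it was lower in untreated cells too. The median change was -0.13, against -0.03 over all genes, and 21 of 31 values were negative. The fit rests on 2 residual degrees of freedom, and calls turned on 1 library: 8 genes were lower and 3 higher without DKO library 2, and 5 lower and 1 higher without DKO library 1. Of all genes 19.7% were lower and 19.8% higher in the first of these fits, and 12.1% and 10.8% in the second. DKO is then a single library assumed to vary like the 2 WT libraries, whose spread gives 1 residual degree of freedom.

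Levels of Calr in the stimulated cells were 865 and 805 CPM in WT and 695 and 589 in DKO (-0.40 ± 0.19, edgeR adjusted p = 0.187). Edem1 had 327 and 301 in WT and 201 and 259 in DKO cells (-0.46 ± 0.20, edgeR adjusted p = 0.153). Hspa5 had 799 and 696 in WT and 651 and 641 in DKO cells (-0.23 ± 0.18, edgeR adjusted p = 0.438). In these 3 genes the DKO libraries were below both WT libraries. Of the sensors, Atf6 had 110 and 115 CPM in WT and 91.4 and 103 in DKO cells (-0.22 ± 0.17, edgeR adjusted p = 0.41). Ern1 had 9.4 and 8.1 in WT and 11.8 and 19.1 in DKO cells (0.80 ± 0.27, edgeR adjusted p = 0.0819). Eif2ak3 had 55.3 and 63.3 in WT and 39.2 and 46.7 in DKO cells (-0.48 ± 0.18, edgeR adjusted p = 0.107). Ern1 thus lay higher and Eif2ak3 and Atf6 lower in DKO without overlap. DKO was below WT without overlap in 15 genes and above in 4, where 31.9% and 29.7% of all genes were so placed.

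The difference between the genotype effect in stimulated and in untreated cells passed for 0 of 31 genes, where 0.140% of all genes passed. With no adjustment 4 had p under 0.05 upward and 1 downward, where 12% of all genes had such a p, and DESeq2 called 0. The smallest adjusted p was that of Eif2ak3 (interaction -0.51 ± 0.16, edgeR adjusted p = 0.269), followed by Derl3 (2.02 ± 0.63, edgeR adjusted p = 0.271). Without stimulated DKO library 2, Derl3 and Sec61a1 passed upward and Eif2ak3 downward, where 4.28% and 3.59% of all genes did so. For Hspa5 the interaction was 0.02 ± 0.16 (edgeR adjusted p = 0.978), for Atf6 0.10 ± 0.22 (edgeR adjusted p = 0.882) and for Ern1 0.69 ± 0.38 (edgeR adjusted p = 0.486).

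Stimulated WT cells differed from untreated WT cells in more of these genes: 14 of 31 were lower and 3 higher, where 22.8% of all genes were lower and 17.8% higher. The median change was -0.31, against -0.02 over all genes. Without untreated WT library 3 or stimulated WT library 1, 9 were lower, and 8 without the other stimulated WT library, where 19.0%, 15.8% and 12.7% of all genes were called lower. Stimulated DKO cells had 8 lower and 3 higher than untreated DKO cells, with 16.8% and 16.2% of all genes so called, and a median of -0.19. All stimulated cells were cultured and are in another table than the untreated cells, so stimulation, culture and table cannot be told apart. Sex also differed in part: every stimulated library had the male RNA pattern, while untreated WT 2 and DKO 1 had the female one. Lower in both genotypes were Hspa5, Sdf2l1, Manf, Creld2, Herpud1, Derl1 and Sec61b, and higher in both were Edem1 and Sec11c.

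**Figure D4:**
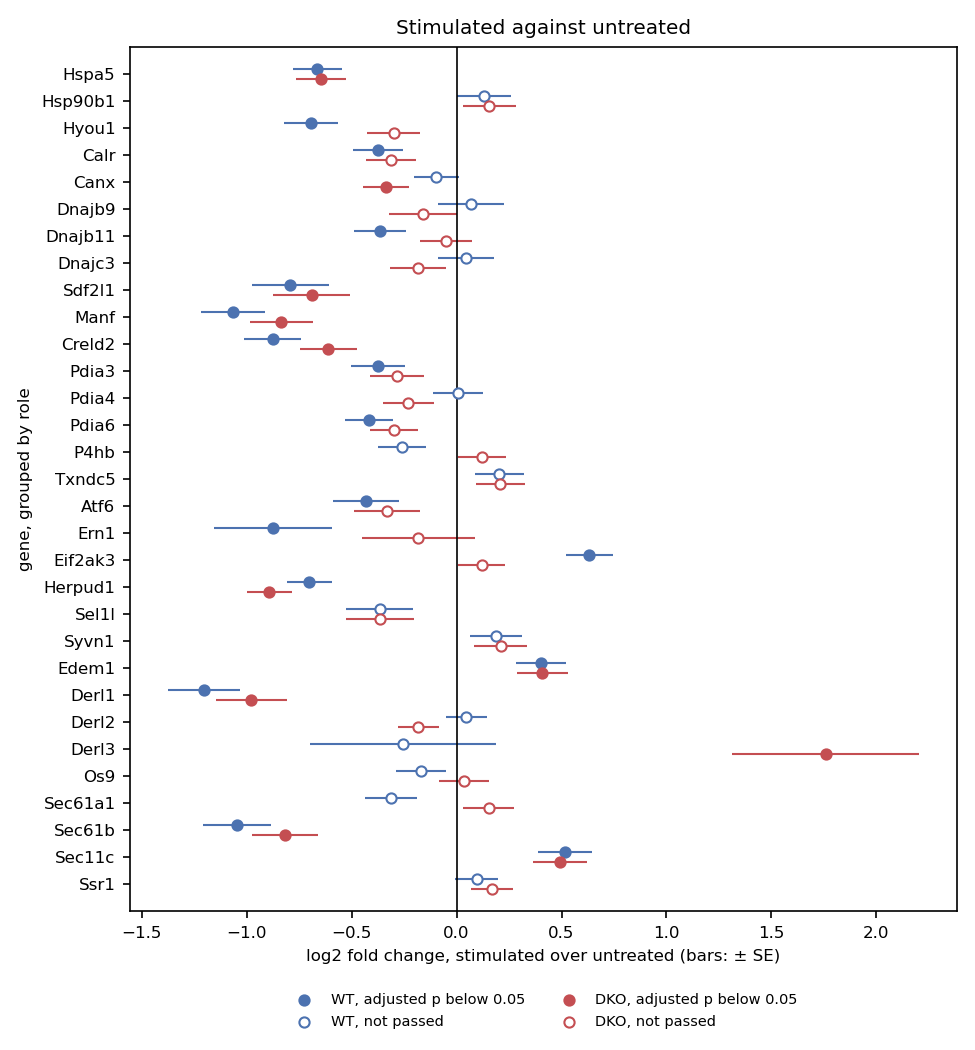
Log2 fold change of stimulated over untreated cells for each tested ER gene (rows, grouped by role), in WT (blue) and DKO (red). Bars are ± SE and filled points passed an adjusted p of 0.05: among the genes filled in both genotypes the WT points of Derl1, Manf and Sec61b lie farthest left, and the DKO point of Derl3 lies farthest right.

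Among the chaperones 7 of 11 fell with stimulation in WT cells and 5 in DKO cells. Manf (ENSMUSG00000032575; chromosome 9, 106715511 to 106769178, minus strand), a small BiP partner, had 154, 137 and 138 CPM in untreated and 71.96 and 66.5 in stimulated WT cells. The stimulated level was about 48.5% of the untreated mean, a change of -1.06 ± 0.15 (edgeR adjusted p = 0.000176), and DKO cells gave -0.83 ± 0.15 (edgeR adjusted p = 0.00121). Hspa5 went from 1168 ± 67.9 CPM (SD, n = 3) to the stimulated 799 and 696 given above in WT, with no overlap (-0.66 ± 0.12, edgeR adjusted p = 0.000783). In DKO cells its change was -0.65 ± 0.12 (edgeR adjusted p = 0.00125). Creld2, an ER protein that rises under ER stress, had 44.2, 44.4 and 45.7 in untreated and 24.6 and 24.9 in stimulated WT cells (-0.88 ± 0.14, edgeR adjusted p = 0.000322). Sdf2l1, which works with BiP cochaperones, had 65.3, 51.6 and 51.2 and then 33.1 and 32.5 (-0.79 ± 0.18, edgeR adjusted p = 0.00444). Hyou1, an exchange factor for BiP, had 209, 229 and 221 and then 153 and 123 (-0.69 ± 0.13, edgeR adjusted p = 0.000997). In each of these genes both stimulated WT libraries were below all numbered untreated WT libraries. Hsp90b1 did not pass, with 1092 and 1082 CPM in stimulated WT cells (0.13 ± 0.13, edgeR adjusted p = 0.441). Calr and the cochaperone Dnajb11 were the other chaperones that fell in WT cells (-0.37 and -0.36). In DKO cells Sdf2l1 changed by -0.69 ± 0.18, Creld2 by -0.61 ± 0.14 and Canx by -0.34 ± 0.11 (edgeR adjusted p = 0.0125, 0.00442 and 0.0313). Of the isomerases Pdia3 and Pdia6 fell in WT cells (-0.38 and -0.42) and none passed in DKO cells, where their changes ran from -0.30 to 0.21.

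The degradation and translocation genes went both ways. Derl1 (ENSMUSG00000022365; chromosome 15, 57732898 to 57755844, minus strand), a membrane protein of the export channel, had 147, 177 and 150 CPM in untreated and 73.1 and 65.9 in stimulated WT cells (-1.20 ± 0.17, edgeR adjusted p = 0.000173). DKO cells had 181, 128 and 122 and then 77.1 and 67.8 (-0.98 ± 0.17, edgeR adjusted p = 0.000944). All 4 stimulated libraries lay below all 6 numbered untreated ones. Herpud1 had 149 and 152 CPM in stimulated WT cells (-0.70 ± 0.11, edgeR adjusted p = 0.000266) and 116 and 104 in stimulated DKO cells (-0.89 ± 0.11, edgeR adjusted p = 5.85e-05). Edem1, by contrast, rose by 0.40 ± 0.12 in WT (edgeR adjusted p = 0.0187) and 0.41 ± 0.12 in DKO cells (edgeR adjusted p = 0.0214). Derl3 rose in DKO cells (1.76 ± 0.45, edgeR adjusted p = 0.00942), on 255 and 100 counts in the stimulated DKO libraries, while its WT change of -0.26 ± 0.44 did not pass (edgeR adjusted p = 0.675).

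Sec61b, a small subunit of the channel, had 67.3, 57.5 and 62.2 CPM in untreated and 31.9 and 29.3 in stimulated WT cells (-1.05 ± 0.16, edgeR adjusted p = 0.000297). Sec11c, a catalytic subunit of the signal peptidase, had 145, 107 and 123 and then 173 and 190 (0.52 ± 0.13, edgeR adjusted p = 0.00698). The first was lower and the second higher in both stimulated libraries than in any numbered untreated WT library, while the untreated additional WT libraries had 213 and 215 CPM of Sec11c, above the stimulated ones. In DKO cells Sec61b changed by -0.82 ± 0.16 (edgeR adjusted p = 0.00195) and Sec11c by 0.49 ± 0.13 (edgeR adjusted p = 0.0116). All 3 sensors passed in WT cells. Eif2ak3 rose by 0.63 ± 0.11 (edgeR adjusted p = 0.000758), Ern1 fell by 0.88 ± 0.28 (edgeR adjusted p = 0.0249) and Atf6 fell by 0.43 ± 0.16 (edgeR adjusted p = 0.0433). In DKO cells none of them passed, with changes of 0.12, -0.18 and -0.33, and the interaction above did not separate the genotypes.

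**Figure D5:**
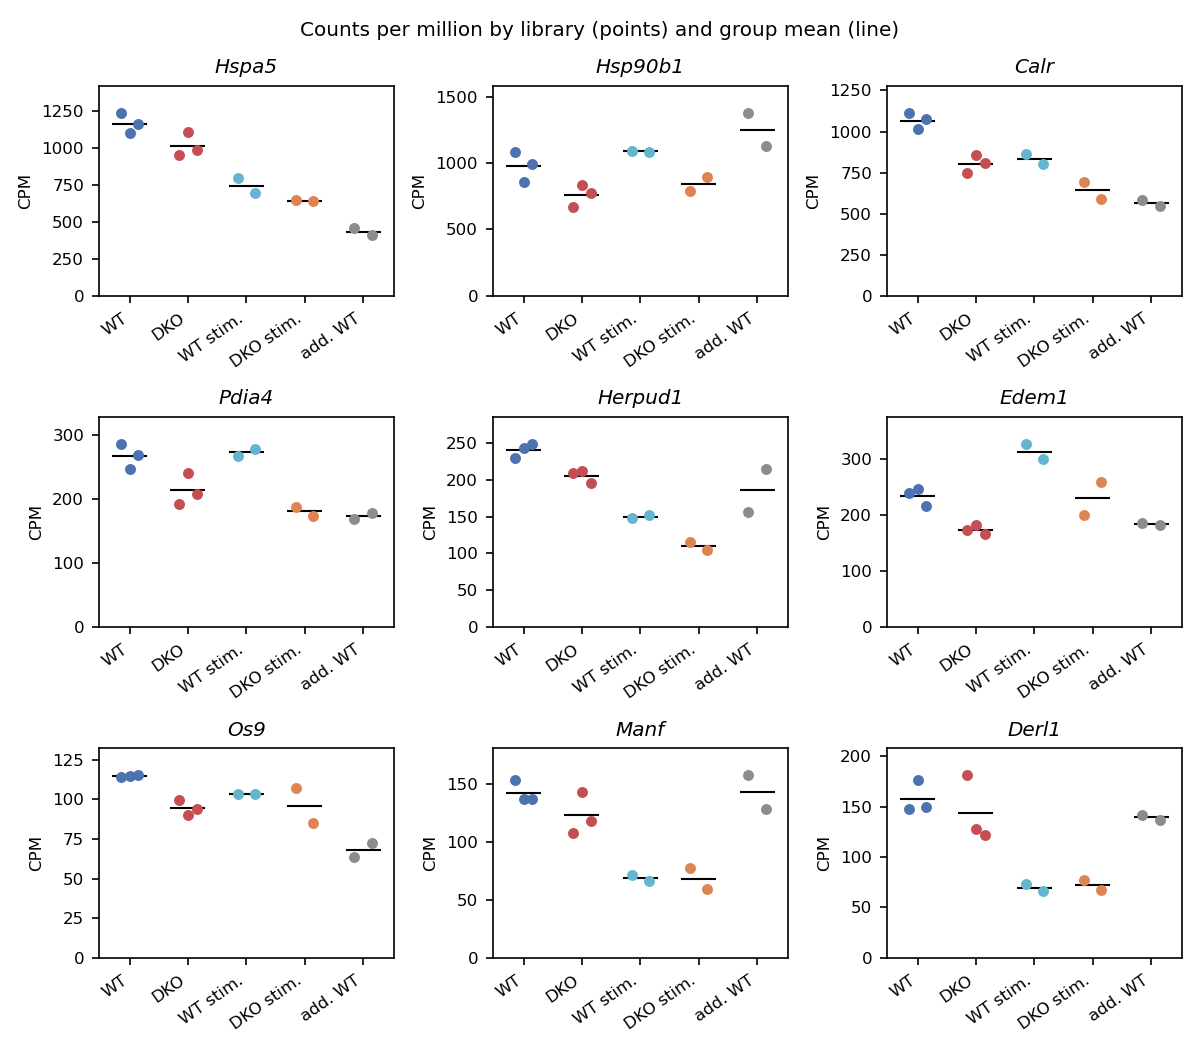
CPM of 9 ER genes in each library (points) with the group mean (line), each panel starting at 0. Calr and Edem1 are lower in DKO than in numbered WT libraries (untreated) and in stimulated WT libraries, Manf and Derl1 are lower in all stimulated libraries, and the additional untreated WT libraries lie lowest for Hspa5, Calr and Os9.

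More ER genes passed between the additional and the numbered untreated WT libraries than between the genotypes. The comparison was made only once the data had been seen. In it 17 of 31 genes were lower and 5 higher in the additional libraries, where 28.6% of all genes were lower and 26.3% higher. Hspa5 had 458 and 410 CPM there, 37.2% of the numbered WT mean (-1.46 ± 0.10, edgeR adjusted p = 1.24e-05), and Creld2 had 10.0 and 12.8 (-2.003 ± 0.15, edgeR adjusted p = 1.4e-05). Calr had 583 and 549 (-0.94 ± 0.09, edgeR adjusted p = 5.26e-05). All these values lay below those of every numbered WT and DKO library of untreated cells. Hsp90b1 went the other way, with 1374 and 1129 CPM (0.33 ± 0.12), and only just passed (edgeR adjusted p = 0.05 after rounding). By role, 6 of 11 chaperones were lower and 3 higher (Hsp90b1, Canx and Dnajb9), and all 5 isomerases tested were lower, with log2 changes from -0.996 to -0.53. Of the degradation genes 4 were lower, with Syvn1 at -1.15, and Derl2 was higher. Of the translocation genes Sec61a1 and Sec61b were lower, while Sec11c was higher (0.75 ± 0.12). Manf, which was lower in stimulated cells, had 158 and 129 CPM here, overlapping the numbered WT values (-0.03 ± 0.11, edgeR adjusted p = 0.863). Without numbered WT library 3 or the first additional library, 3 genes were higher in place of 5, where 21.8% and 18% of all genes were higher. The sensors did not pass, with changes of 0.14 for Atf6, -0.27 for Ern1 and 0.19 for Eif2ak3.

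The direction of the DKO comparison turned with the WT libraries used. With the additional libraries counted as WT beside the numbered ones, 0 ER genes were called lower in untreated DKO cells (1.64% of all genes) and the median change was -0.03. With the additional libraries in place of the numbered ones, 15 were higher and 6 lower, where 30.6% of all genes were higher and 29.4% lower. The median was 0.33, and Hspa5 read 1.26 higher and Calr 0.54 higher in DKO on the log2 scale. The same swap turned the stimulation effect in WT cells to 10 higher and 6 lower, with a median of 0.21, where 21.3% of all genes were higher and 23.0% lower. Monocyte or macrophage markers summed to 193 to 242 CPM in the additional libraries, against 65.7 to 71.8 in the numbered WT libraries. Adgre1 carried this sum, with 172 to 220 CPM against 31.1 to 48.1, and Cd68 rose too (0.58 ± 0.18, edgeR adjusted p = 0.0258). Lyz2 was lower, with 3.38 to 3.71 against 6.99 to 25.4 (-2.04 ± 0.51, edgeR adjusted p = 0.00796). The B cell marker Pax5 had 1248 to 1324 CPM there against 575 to 650. Their part in the result was not tested, and the source of the additional cells and their table cannot be told apart.

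Genes of the pathway outside the 32 moved in part. Of the 15 other regulators of the unfolded protein response that were tested, 3 fell and 0 rose in untreated DKO cells, where 10.6% of all genes were lower and 8.81% higher. The transcription factor gene Xbp1 (ENSMUSG00000020484; chromosome 11, 5470659 to 5475893, plus strand) had 135, 123 and 122 CPM in WT and 86.4, 94.0 and 71.6 in DKO cells, all below numbered WT (-0.60 ± 0.10, edgeR adjusted p = 0.00609). The additional WT libraries held 1081 and 935 Xbp1 counts, fewer than any untreated DKO library (1335, 1477 and 1087). Totals of these libraries ran from 15090953 to 16275659. The fall is thus one against the numbered WT libraries. In stimulated cells Xbp1 had 79.2 and 64.4 in WT and 45.3 and 39.2 in DKO cells, again without overlap (-0.78 ± 0.18, edgeR adjusted p = 0.0282). Counts over the whole gene do not separate its spliced, active form from the unspliced one. Creb3l2, the gene of an ER-bound transcription factor, fell by 1.28 ± 0.20 in untreated cells (edgeR adjusted p = 0.00454). Effectors of the PERK branch did not pass, with Atf4 at 0.11 ± 0.10 (edgeR adjusted p = 0.455) and Ddit3 at -0.50 ± 0.18 (edgeR adjusted p = 0.0868). In stimulated cells Atf4 changed by 0.15 and Ddit3 by 0.08, neither past the threshold, where 6.17% of all genes were lower and 5.09% higher. Chac1 changed by -1.85 (edgeR adjusted p = 0.0349) and Ppp1r15a by 0.97 (edgeR adjusted p = 0.0206).

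Of 27 other folding enzymes and lectin cycle genes 4 fell and 2 rose in untreated DKO cells, where 10.6% of all genes fell and 8.81% rose. Among them, the sulfhydryl oxidase Qsox1 fell by 0.92 ± 0.15 (edgeR adjusted p = 0.0056) and Cnpy3 changed by -0.38 ± 0.08 (edgeR adjusted p = 0.0151), while Tmx1 rose by 0.33 and Selenof by 0.28. Qsox1 was also lower in stimulated DKO cells (-0.83 ± 0.19, edgeR adjusted p = 0.0268), where it was the only gene of its list to pass. The 21 other degradation genes gave 0 calls. Of 21 other translocation genes 1 rose (Srp54a, 1.05) and 1 fell (Ssr4, -0.47), of 11 oligosaccharyltransferase genes Ost4 and Stt3a rose, and of 23 ER to Golgi traffic genes Sec24d (-1.79) and Surf4 (-0.23) fell. In these lists no gene passed in stimulated cells, where 6.17% of all genes were lower and 5.09% higher. List medians in untreated cells ran from -0.17 for the regulators to 0.04, against -0.01 for all genes.

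With stimulation each of these lists held more genes that fell than rose, in WT and in DKO cells. So did all genes, with 22.8% lower and 17.8% higher in WT cells and 16.8% and 16.2% in DKO cells. In WT cells 9 of the 15 regulators fell and 0 rose, with a median of -0.84, and in DKO cells 10 fell. Atf4 changed by -1.79 ± 0.16 in WT (edgeR adjusted p = 3.75e-06) and -1.71 ± 0.15 in DKO cells (edgeR adjusted p = 6.1e-06), Ddit3 by -1.37 and -0.76, and Xbp1 by -0.84 and -0.98. The untreated additional WT libraries (totals of 15090953 and 16275659) held 1081 and 935 Xbp1 counts. The stimulated WT libraries (totals of 19262470 and 17572518) held 1535 and 1166. Atf4 had 5249 and 6596 counts in the additional and 3876 and 3751 in the stimulated WT libraries, and Ddit3 1101 and 1244 against 182 and 256. Chac1 changed by -3.81 in WT cells, and Trib3 by -4.74 in WT and -5.16 in DKO cells. Of the oligosaccharyltransferase genes 5 of 11 fell in WT cells, led by Krtcap2 (-2.28) and Dad1 (-1.41), of the traffic genes 10 of 23, led by Mcfd2 (-0.94) and Kdelr2 (-0.83), and of the degradation genes 7 of 21. The other folding enzymes had 9 lower and 3 higher of 27. Translocation genes went both ways, with 10 lower and 4 higher of 21, among them Srp14 (-0.92) down and Sec61g (1.20) up. Plasma cell markers also went both ways in WT cells, with Mzb1 at -1.45 and Sdc1 at 1.46, and their part in these changes was not tested.

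The tested genes with a promoter window fell into 9 with the ER stress response element, 2 with the second form (Herpud1 and Dnajb11) and 14 with neither. Another 6 tested genes, Atf6, Derl1, Hyou1, Manf, Sec11c and Sec61a1, had no window and are in none of these counts. Of them Manf, Derl1, Hyou1 and Atf6 fell and Sec11c rose with stimulation in WT cells. In untreated DKO cells 3 of 9 with the element, 1 of 2 with the second form and 3 of 14 with neither were lower, where 10.6% of all genes were. The medians were -0.21 with the element and -0.15 with neither. With stimulation in WT cells 4 of 9, 2 of 2 and 4 of 14 were lower, against 22.8% of all genes, with medians of -0.26 and -0.08. Between the additional and the numbered WT libraries 5 of 9, 2 of 2 and 8 of 14 were lower, against 28.6% of all genes, with medians of -0.78 and -0.45. These counts are a description, and no test was made between the sets.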

How the data were processed

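The authors deposited raw counts per gene in 3 tables (untreated, stimulated and additional WT cells), with exonic gene lengths and FPKM values; the deposited FPKM values were not used. Per the submitters' processing notes, the tools were FastQC 0.10.1, cutadapt 1.9.1, HISAT2 2.2.1 and HTSeq 0.6.1, with build GRCm39. The additional table's gene coordinates are of GRCm38, but exonic lengths of the 32 genes were equal in all tables. Strand setting: not given in the sources used here. The same holds for the annotation release, and overlapping or antisense genes are uncertain.

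The tests used edgeR 4.0.16 (R 4.3.3): a two-sided quasi-likelihood test on counts with TMM scaling, after filterByExpr (count of 10, total of 15). Benjamini-Hochberg adjustment ran over all genes tested, with 0.05 as the threshold. Genotypes were compared in the 6 untreated and the 4 stimulated libraries apart; stimulation effects and the interaction came from 1 fit over these 10 libraries. The SE is the size of the log2 change divided by the root of F. Printed CPM were scaled by TMM over all 12 libraries. CPM of marker genes, their sums and the shares of counts used plain totals. One stimulated WT column carries a number that the labels do not, and it entered as an unnumbered WT library. The genes and lists were chosen with earlier results of these data known. Values per library and full statistics are given for genes past the threshold, at most 10 per comparison by smallest p, with Hspa5, the sensors, Xbp1, Atf4 and Ddit3 always named and 2 genes per direction for other lists. Alternatives were RLE scaling, DESeq2 1.42.0, other filters on low counts, immunoglobulin genes left out, leaving out each library, a replicate block, a term for sex, a single fit and other use of the additional WT libraries; putting these in place of the numbered ones was chosen after seeing the data. The fits were first tested on simulated data. Some results on marker genes are not reported here.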

Additional observations from a re-analysis of the deposited data

How the results depend on the processing

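In untreated DKO against WT cells 2638 genes passed in all, and 923 to 2779 when 1 library was left out. A term for sex gave 4392 genes, with 13 ER genes lower and 1 higher. The replicate block gave 786 genes and 1 ER gene lower (Edem1), where 3.38% of all genes were lower. Deviations of same-numbered libraries from their group means had correlations of -0.402, -0.411 and 0.187. The highest, 0.505, was that of WT 2 and DKO 1, the libraries with the female pattern. Since WT and DKO differ in sex for numbers 1 and 2, this check cannot tell whether the numbers pair the libraries. For stimulated cells no block could be fitted because the columns share only the number 1. A single fit over 10 libraries gave 2 ER genes lower, where 7.76% of all genes were lower. Leaving out 1 library gave 2 to 7, where 4.04% to 11.3% of all genes were lower. Counting the additional WT libraries as WT gave 319 genes and 0 ER genes lower, a median change of -0.025, Hspa5 at 0.21 and Eif2ak3 at -0.025. Putting them in place of the numbered ones gave 8533 genes, 15 ER genes higher, a median of 0.33, and changes of 1.26 for Hspa5, 0.54 for Calr, 0.51 for Os9, 0.49 for Pdia6, 0.33 for Pdia4, 0.18 for Herpud1 and -0.11 for Eif2ak3. Ern1 ranged from -0.092 to 0.40 with 1 library left out.

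In stimulated cells 1625 genes passed, 576 to 5977 with 1 library left out, 2847 with no filter and 3429 in the single fit. ER genes called lower were 4 in the single fit and 1 with DESeq2, no filter, the stricter filter or immunoglobulin genes left out. Of all genes 10.0%, 6.81%, 5.91%, 7.47% and 6.57% were lower in these fits, in that order. ER genes called higher were 1 in the single fit and 2 with no filter, where 12.8% and 5.25% of all genes were higher. For the interaction, 21 genes passed, 1 to 1244 with 1 library left out, 174 with DESeq2 and 491 with no filter; ER genes higher were 0 to 2 and lower 0 to 1, with 1 higher with no filter. The median ranged from -0.0060 to 0.12, Atf6 from -0.022 to 0.28 and Hspa5 from -0.093 to 0.10, and Hspa5 was -0.017 without immunoglobulin genes.

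With stimulation in WT cells 6097 genes passed, 3557 to 7031 with 1 library left out, with 8 to 16 ER genes lower. The additional WT libraries counted as WT gave 2437 genes, a median of -0.10 and Dnajb11 at 0.00086. In that fit 2 ER genes were lower and 2 higher, where 8.97% of all genes were lower and 7.00% higher. In place of the numbered ones they gave 10 ER genes higher and 6 lower, a median of 0.21, and changes of 1.097 for Creld2, 0.76 for Hspa5, 0.72 for Dnajb11, 0.54 for Calr, 0.35 for Sdf2l1, 0.33 for Pdia6, 0.27 for Hyou1, 0.13 for Pdia3 and -0.26 for Sec11c. Ern1 in DKO cells ranged from -0.54 to 0.11. Between additional and numbered WT libraries the median ranged from -0.56 to -0.38 and was -0.44 with no filter, 3 to 5 genes were higher, and Ern1 ranged from -0.52 to 0.014. The median level per kilobase was 36.7 in untreated, 27.0 in stimulated and 23.2 in additional WT cells with plain totals, against 35.4, 26.5 and 22.8 with TMM. With TMM it was 31.6 in untreated and 27.4 in stimulated DKO cells. RLE scaling left every count of ER genes within 1.5 times the reported one. Where values changed, the cause was not tested. With 2 libraries in a group, a gene that did not pass is not shown to be unchanged.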
